A study of Rattus norvegicus with 30 samples.

Results

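The proteasome genes were the 46 genes whose symbol in the platform annotation starts with Psma, Psmb, Psmc, Psmd, Psme, Psmf or Psmg followed by a number, and that had a probe set assigned to 1 gene alone. They were drawn from 14217 genes with such a probe set, and each gene was followed by its brightest probe set. All 46 passed the limit on low signal and stood among the 10528 genes tested. The rule took in 7 alpha and 6 beta subunits of the core, 3 immunoproteasome subunits, 6 ATPases and 11 other subunits of the regulatory particle, 4 activators or inhibitors, and 7 assembly chaperones. The other 2, Psmc3ip and Psme3ip1, share only the letters of the symbol: the first is a recombination factor and the second a protein named for binding the activator PSME3. Psmb6 and Psme3 had only probe sets shared with another gene and were not analysed here.

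The proteasome is the protease that breaks down most short-lived and damaged cytosolic and nuclear proteins once they carry a ubiquitin chain. Its barrel-shaped core has outer alpha rings that gate entry and inner beta rings that hold the cutting sites, and the regulatory particle on its ends binds the chain, removes it and unfolds the protein with a ring of ATPases. Under interferon, 3 beta subunits are replaced by Psmb8, Psmb9 and Psmb10, which favours peptides suited to presentation on the cell surface. Hepatocytes carry out much of the protein turnover of the liver, and loss of proteasome activity is known to raise transcription of nearly all subunit genes through the factor Nfe2l1.

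The cells were primary hepatocytes of male Sprague Dawley rats, bought frozen, plated on collagen under a Matrigel overlay and dosed on day 3 of culture. The 6 groups were vehicle (1% DMSO), 250 µM and 1000 µM dioctyl phthalate, a plasticiser ester, each harvested 24 or 48 h after dosing, and the exposed wells received the compound in the same solvent. Each group held 5 wells with 1 array each, 30 arrays in all. The series title names the effect of the compound on these cells as its question, and the labels describe a time course with a dose response. How many animals or vials lay behind the wells is not given in the labels, so the p-values measure the spread between wells. The cultures are thawed cells kept outside the liver.

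Levels are given as log2 of the MAS5 signal plus 1, and a change is a difference of 2 group means on this scale with its standard error from limma. A gene is said to have risen or fallen where the Benjamini-Hochberg adjusted p over the 10528 genes was under 0.05. Levels of different probe sets are not comparable, so genes are compared by their changes alone. In cultures of this kind, less RNA per cell and fewer cells of a type cannot be told apart. Array medians lay between 8.44 and 8.79, and array pairs within a group correlated at 0.933 to 0.953 across probe sets. Of the hepatocyte markers, 11 of 11 measured were above the low-signal limit of 7.88. Of the markers of Kupffer cells and leukocytes 5 of 11 were above it: Lyz2, Cd68, Clec4f, Csf1r and Tyrobp. Of stellate cells 5 of 9 were: Vim, Acta2, Col3a1, Des and Col1a1. Of liver endothelial cells 2 of 6 were, Kdr and Lyve1, and of cholangiocytes 1 of 4, Epcam. Among those under it were Ptprc, Cd163, Adgre1, Lrat, Pdgfrb, Pecam1, Krt7 and Krt19. The summed stellate markers, to which Vim contributed most, ran from 10089 to 15466 in vehicle at 24 h and from 6994 to 8285 in the exposed groups of that time. At 48 h the same sum ran from 15552 to 16620 in vehicle and from 6864 to 8768 with exposure, and its part in the results below was not tested.

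Vehicle at 48 h stood apart in a measure of RNA integrity on the array, the signal of the 3' beta-actin control over that of the 5' one, as log2. Its 5 arrays had ratios of 2.44, 1.74, 1.70, 1.04 and 1.66, a mean of 1.72 ± 0.494 (SD, n = 5), against group means of 1.14 to 1.30 elsewhere. The difference from vehicle at 24 h had an exact two-sided permutation p of 0.0397 and an adjusted p of 0.119 over 15 tests. Only replicate 4 of that group lay in the range of the other arrays. The median changes and the leading genes of comparisons with vehicle at 48 h are therefore also given with replicate 4 as its sole array.

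The bases upstream of 6 of the genes described below are shown. Each of these genes passed in at least 1 comparison against vehicle below. They were picked by hand and all hold the motif marked in them, so they do not show how often genes that passed hold it. They are the 250 bases before the annotated start, 5′ to 3′ on the gene's own strand, from RefSeq on build GRCr8, where 42 of the 46 genes had an entry. In the first 3, genes that rose at both doses, capitals mark CCAAT or its complement, the box bound by NF-Y.

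Psma1 (chr1:177887858-177888107, minus strand): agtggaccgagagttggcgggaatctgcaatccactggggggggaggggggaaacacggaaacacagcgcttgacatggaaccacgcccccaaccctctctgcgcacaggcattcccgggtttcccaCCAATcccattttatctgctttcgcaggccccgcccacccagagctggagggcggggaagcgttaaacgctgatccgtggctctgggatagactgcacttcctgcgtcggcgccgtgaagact

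Psma2 (chr17:55260442-55260691, minus strand): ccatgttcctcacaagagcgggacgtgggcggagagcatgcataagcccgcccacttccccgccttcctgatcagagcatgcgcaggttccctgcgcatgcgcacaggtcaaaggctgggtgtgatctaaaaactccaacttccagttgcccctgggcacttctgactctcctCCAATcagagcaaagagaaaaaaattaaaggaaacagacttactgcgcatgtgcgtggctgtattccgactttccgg

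Psmb7 (chr3:42827471-42827720, minus strand): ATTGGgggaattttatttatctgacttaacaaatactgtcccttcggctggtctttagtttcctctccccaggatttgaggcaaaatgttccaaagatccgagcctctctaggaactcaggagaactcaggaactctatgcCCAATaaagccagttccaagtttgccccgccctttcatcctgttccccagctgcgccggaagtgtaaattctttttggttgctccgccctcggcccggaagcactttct

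Psmb5 codes for a catalytic subunit, and capitals mark TGACNNNGC, the core of the antioxidant response element that Nfe2l1 and Nfe2l2 bind.

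Psmb5 (chr15:32047380-32047629, minus strand): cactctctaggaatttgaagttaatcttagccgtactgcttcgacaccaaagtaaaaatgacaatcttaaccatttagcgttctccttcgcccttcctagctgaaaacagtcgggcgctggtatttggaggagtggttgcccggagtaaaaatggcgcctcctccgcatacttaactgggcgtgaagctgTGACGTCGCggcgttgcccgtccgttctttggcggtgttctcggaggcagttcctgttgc

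Psmb10 and Psme2 are both known to be induced by interferon and moved in opposite directions here, and capitals mark GAAANNGAA, the core of the interferon-stimulated response element.

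Psmb10 (chr19:50743293-50743542, minus strand): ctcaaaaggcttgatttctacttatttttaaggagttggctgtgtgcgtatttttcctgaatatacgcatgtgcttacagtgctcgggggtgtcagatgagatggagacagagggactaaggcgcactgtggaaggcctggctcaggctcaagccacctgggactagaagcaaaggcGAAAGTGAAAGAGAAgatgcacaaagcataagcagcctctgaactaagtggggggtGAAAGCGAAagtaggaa

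Psme2 (chr15:33052752-33053001, minus strand): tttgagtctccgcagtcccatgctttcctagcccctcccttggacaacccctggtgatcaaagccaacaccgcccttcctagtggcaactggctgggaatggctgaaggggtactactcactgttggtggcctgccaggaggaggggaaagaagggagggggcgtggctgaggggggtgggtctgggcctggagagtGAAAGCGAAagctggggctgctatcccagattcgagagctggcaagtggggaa

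Both strands were searched, and 2 of the 3 matches upstream of Psmb10 overlap each other. CCAAT stood upstream of 21 of the 42 proteasome genes (50.0%) and of 34.0% of all 33469 promoters of the table. TGACNNNGC stood upstream of 6 of the 42 (14.3%: Psma3, Psmb2, Psmb5, Psmd1, Psmd9 and Psme4) against 10.1% of all, and GAAANNGAA upstream of 7 (16.7%: Psma4, Psmb2, Psmb3, Psmb10, Psmd7, Psmd11 and Psme2) against 8.12%. Psmc4 and Psmg1, which also rose with exposure, had no CCAAT there, and Psmb8, which fell, had no GAAANNGAA. A match describes the letters and is not a bound site.

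With exposure a minority of the proteasome genes rose by small amounts at 24 h, and at 250 µM a larger number were above vehicle at 48 h. Against the mean of vehicle at 24 h, the median gene at 250 µM was at 0.11 at 24 h and 0.08 at 48 h (averages of 5 arrays). In vehicle it was at -0.006 and then -0.11, so the larger count at 48 h came with lower vehicle levels. Of the 3 immunoproteasome subunits, 1 fell at 250 µM and 2 at 1000 µM at each time. Over all tested genes 11% and 11.2% fell at 24 h and 26.0% and 18.3% at 48 h (250, then 1000 µM). Each of these calls at 24 h was lost without vehicle replicate 1 of that time. At 24 h, 250 µM raised 14 of 46 genes, where 8.31% of all tested genes rose, and lowered 2, where 11% fell. At that time 1000 µM raised 12 (8.28% of all genes rose) and lowered 2 (11.2% fell). The median change of the 46 genes was 0.11 at 250 µM and 0.08 at 1000 µM, against -0.03 and -0.03 over all tested genes. The share of these genes that rose was above the share over all tested genes and the share that fell was below it, as a description with no test of the list.

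At 48 h, 250 µM raised 26 of the 46 genes (15.2% of all genes rose) and lowered 1 (26.0% fell), with a median change of 0.20 against -0.07 over all genes. At 1000 µM 11 rose (11.5% of all genes) and 2 fell (18.3%), with a median of 0.09 against -0.04. The 2 doses share their vehicle arrays at each time, so their counts are not independent of each other.

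**Figure D1:**
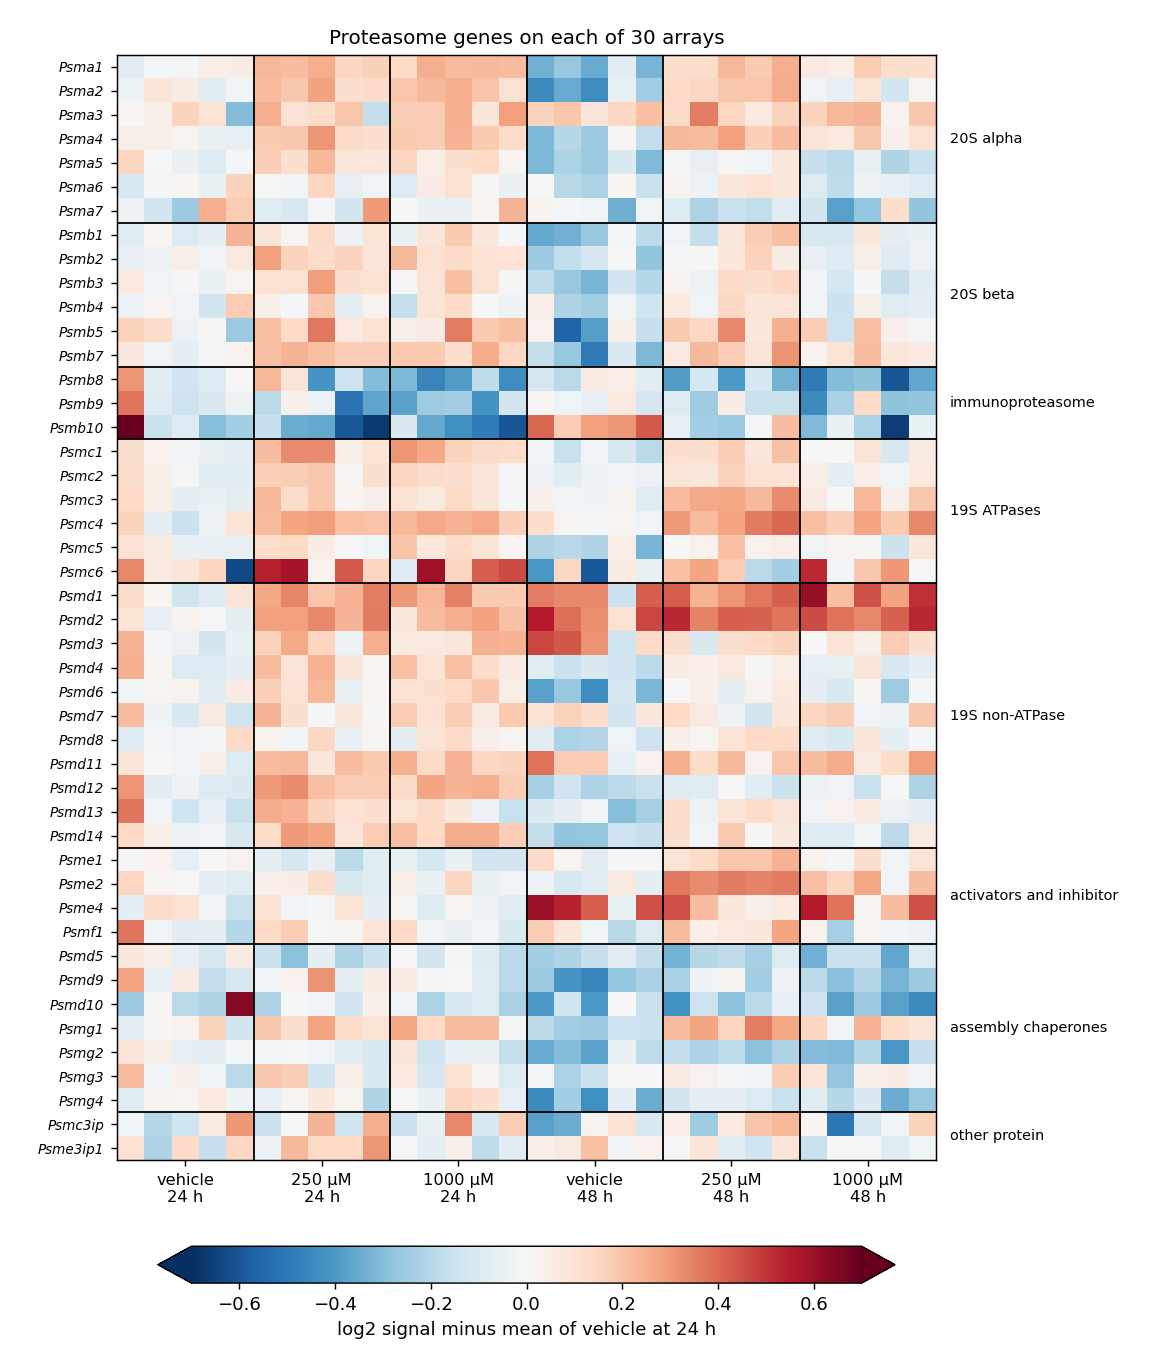
Each row is 1 of the 46 genes, ordered by role, and each column 1 of 30 arrays in 6 groups of 5 (replicates 1 to 5 from left to right); colour is the log2 signal minus the gene's mean in vehicle at 24 h. Most core genes are above that mean at 24 h with exposure, Psmb8 and Psmb10 are below it with exposure at 48 h on nearly every array, and replicate 4 of vehicle at 48 h is paler than the other 4 arrays of its group.

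These counts depend on how the arrays are scaled. With each array's median centred, 4 genes rose at 250 µM (6.13% of all genes rose) and 3 at 1000 µM (6.43%) at 24 h. At that time 0 fell at either dose, where 6.48% and 5.77% of all genes fell. The rises at 24 h were then near the share over all genes. At 48 h the centred counts were 17 up (12% of all genes) and 0 down (20.6%) at 250 µM. At 1000 µM they were 5 up (7.58%) and 2 down (15.8%). The medians of the 46 genes after centring were 0.13 and 0.12 at 24 h and 0.20 and 0.05 at 48 h, so their sign was as before. With quantile normalization 11 rose (9.26% of all genes) and 2 fell (10.8%) at 250 µM and 24 h, and 9 rose (9.19%) and 2 fell (10.6%) at 1000 µM. At 48 h 20 rose (16.6%) and 1 fell (21.8%), and 12 rose (12.8%) and 2 fell (16.6%). The medians were then 0.10 and 0.08 at 24 h and 0.11 and 0.07 at 48 h.

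The alpha subunits, which form the outer rings and the gate of the core, rose in part. Counts by role, here and below, are to be read against the shares over all tested genes given above. Of 7 genes, 3 rose at each dose at 24 h, 5 at 250 µM and 3 at 1000 µM at 48 h, and none fell in these 4 comparisons. Psma1, Psma2 and Psma4 rose in each of the 4. Psma1 had log2 signals of 14.71, 14.77, 14.77, 14.82 and 14.83 in vehicle at 24 h, of 15.01, 14.9998, 15.04, 14.93 and 14.95 at 250 µM, and of 14.92, 15.04, 15.003, 15.01 and 15.001 at 1000 µM. At 48 h it had 14.45, 14.52, 14.43, 14.71 and 14.45 in vehicle, 14.91, 14.91, 15.02, 14.96 and 15.04 at 250 µM, and 14.84, 14.83, 14.96, 14.91 and 14.90 at 1000 µM. Every exposed array was above every vehicle array of its time, and replicate 4 of vehicle at 48 h was the highest of its group. The rises of Psma1 were 0.20 ± 0.05 (adjusted p = 0.00117, limma) and 0.21 ± 0.05 at 24 h, and 0.46 ± 0.05 (1.37-fold, adjusted p = 1.18e-09) and 0.38 ± 0.05 (1.30-fold) at 48 h.

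Psma2, another alpha subunit, had 14.51, 14.64, 14.60, 14.47 and 14.53 in vehicle at 24 h, 14.77, 14.74, 14.83, 14.67 and 14.68 at 250 µM and 14.75, 14.78, 14.80, 14.75 and 14.66 at 1000 µM. The 48 h arrays had 14.11, 14.20, 14.12, 14.50 and 14.31 in vehicle, 14.69, 14.70, 14.74, 14.74 and 14.81 at 250 µM and 14.53, 14.49, 14.65, 14.42 and 14.57 at 1000 µM. Exposed and vehicle arrays did not overlap except at 1000 µM and 48 h, where vehicle replicate 4 lay within the exposed range. Its change of 0.49 ± 0.06 at 250 µM and 48 h (1.40-fold, adjusted p = 2.3e-08) was the largest rise of the 46 genes in any of these comparisons, and at 1000 µM it was 0.28 ± 0.06. Psma4 rose by 0.19 ± 0.05 and 0.18 ± 0.05 at 24 h and by 0.41 ± 0.05 and 0.28 ± 0.05 at 48 h. Psma5 rose by 0.24 ± 0.05 and Psma6 by 0.16 ± 0.05, both at 250 µM and 48 h alone among the 4 comparisons. Psma3 and Psma7 passed in none, with changes at 250 µM and 48 h of 0.01 ± 0.07 and -0.06 ± 0.09.

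The beta subunits of the constitutive core carry the cutting sites: Psmb5 cuts after hydrophobic residues and Psmb7 after basic ones. All 6 measured rose at 250 µM and 48 h, by 0.19 to 0.44, and 3 rose at 1000 µM. At 24 h, 3 rose at 250 µM (Psmb2, Psmb3 and Psmb7) and 1 at 1000 µM (Psmb7), and none fell. Psmb7 had 13.79, 13.69, 13.64, 13.69 and 13.74 in vehicle at 24 h, 13.92, 13.95, 13.92, 13.88 and 13.88 at 250 µM and 13.89, 13.89, 13.83, 13.97 and 13.85 at 1000 µM. Its 48 h signals were 13.54, 13.44, 13.21, 13.61 and 13.39 in vehicle, 13.76, 13.93, 13.89, 13.80 and 14.02 at 250 µM and 13.74, 13.81, 13.92, 13.79 and 13.76 at 1000 µM. Exposed arrays were above all vehicle arrays at both times and doses. The rises were 0.20 ± 0.06 and 0.18 ± 0.06 at 24 h and 0.44 ± 0.06 (1.36-fold, adjusted p = 1.53e-07, limma) and 0.36 ± 0.06 at 48 h. The rise at 1000 µM and 24 h did not pass without vehicle replicate 2 or 3 or without exposed replicate 4 (adjusted p up to 0.0777).

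Psmb5 varied more between wells than Psmb7. At 48 h its vehicle arrays had 14.55, 13.96, 14.13, 14.56 and 14.36, against 14.70, 14.66, 14.85, 14.59 and 14.77 at 250 µM and 14.69, 14.37, 14.73, 14.56 and 14.51 at 1000 µM. The 250 µM arrays were all above the vehicle arrays, and the 1000 µM arrays overlapped them. It rose by 0.40 ± 0.09 (adjusted p = 0.000738) and 0.26 ± 0.09 (adjusted p = 0.0344) at 48 h, and its changes of 0.18 ± 0.09 and 0.17 ± 0.09 at 24 h did not pass. The call at 1000 µM was lost in 5 of the 30 fits that left out 1 array: without vehicle replicate 2 or 3, or without exposed replicate 1, 3 or 4, with changes down to 0.17. Psmb1, Psmb2, Psmb3 and Psmb4, ring members without a cutting site, rose at 250 µM and 48 h by 0.28 ± 0.07, 0.22 ± 0.05, 0.30 ± 0.05 and 0.19 ± 0.06.

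**Figure D2:**
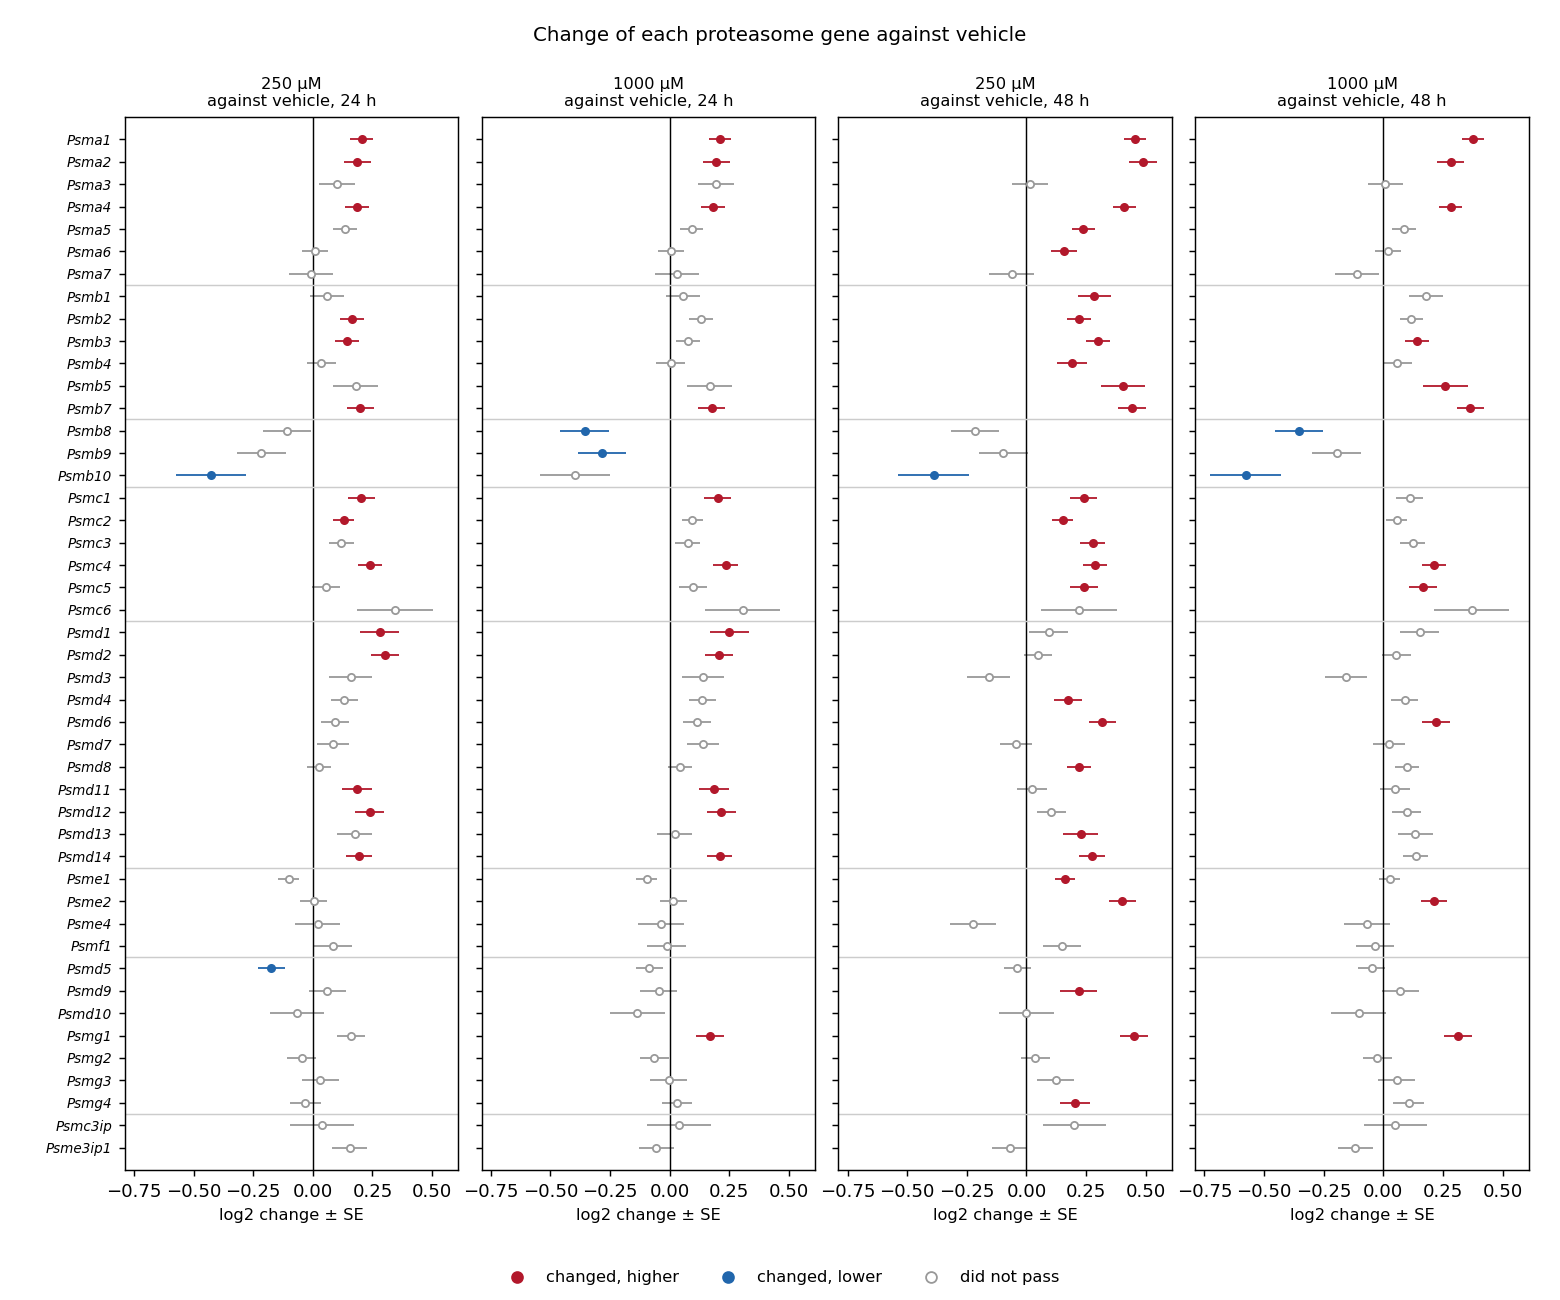
Points are the log2 change of each gene against vehicle of the same time with its standard error from limma (n = 5 arrays a group), in 4 panels by dose and time; filled red and blue points passed the test upward and downward, open grey points did not. At 250 µM and 48 h 26 points are red and all 6 of the constitutive beta subunits are among them, while the 3 immunoproteasome subunits lie left of 0 in every panel.

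The 3 immunoproteasome subunits all had negative changes in the 4 comparisons. Psmb10, the counterpart of Psmb7, had 11.47, 10.55, 10.61, 10.40 and 10.46 in vehicle at 24 h, 10.54, 10.35, 10.34, 10.11 and 10.03 at 250 µM and 10.60, 10.34, 10.27, 10.21 and 10.10 at 1000 µM. Vehicle replicate 1 stood far above the other 4, and the groups overlapped. At 48 h it had 11.10, 10.88, 10.98, 11.005 and 11.13 in vehicle, 10.64, 10.46, 10.44, 10.69 and 10.91 at 250 µM and 10.39, 10.65, 10.48, 10.04 and 10.65 at 1000 µM, where the 1000 µM arrays lay below all vehicle arrays and replicate 5 at 250 µM lay within them. Psmb10 fell by 0.58 ± 0.15 at 1000 µM and 48 h (0.671-fold, adjusted p = 0.00301, limma), and that call held in all 30 fits that left out 1 array. It fell by 0.43 ± 0.15 and 0.39 ± 0.15 at 250 µM at 24 and 48 h, and its change of -0.40 ± 0.15 at 1000 µM and 24 h did not pass (adjusted p = 0.0579). Without vehicle replicate 1 the change at 250 µM and 24 h was -0.23 (adjusted p = 0.212). The call at 250 µM and 24 h was also lost without exposed replicate 3, 4 or 5, and the call at 250 µM and 48 h without vehicle replicate 1 or 5 or exposed replicate 2 or 3.

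Psmb8, the counterpart of Psmb5, had 11.44, 11.37, 11.61, 11.60 and 11.48 in vehicle at 48 h, 11.16, 11.44, 11.16, 11.44 and 11.22 at 250 µM and 11.06, 11.25, 11.27, 10.96 and 11.19 at 1000 µM. The 1000 µM arrays were all below the vehicle arrays and the 250 µM arrays overlapped them. It fell by 0.35 ± 0.10 at 1000 µM and 48 h (adjusted p = 0.00754) and by 0.36 ± 0.10 at 1000 µM and 24 h (adjusted p = 0.0101), where its vehicle arrays had 11.87, 11.48, 11.42, 11.46 and 11.55 and the exposed arrays 11.24, 11.09, 11.17, 11.38 and 11.12. Without vehicle replicate 1 the 24 h value was -0.28 (adjusted p = 0.0506). At 250 µM its changes were -0.11 ± 0.10 and -0.22 ± 0.10, and neither passed.

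Psmb9, the counterpart of Psmb6, fell by 0.28 ± 0.10 at 1000 µM and 24 h (adjusted p = 0.0467), a call that was lost in 16 of the 30 fits that left out 1 array. Without vehicle replicate 1, at 12.22 against 11.70 to 11.81 for the other 4, the change was -0.19 (adjusted p = 0.198). Its other changes were -0.22 ± 0.10, -0.10 ± 0.10 and -0.20 ± 0.10. The summed signal of the Kupffer cell and leukocyte markers ran from 8969 to 10811 in vehicle at 48 h. It ran from 8553 to 9413 at 250 µM and from 8576 to 9259 at 1000 µM. Of these markers, Lyz2, Cd68, Clec4f, Csf1r and Tyrobp were above the low-signal limit, and the others, Ptprc among them, were under it. The part of these cells in the falls was not tested.

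**Figure D3:**
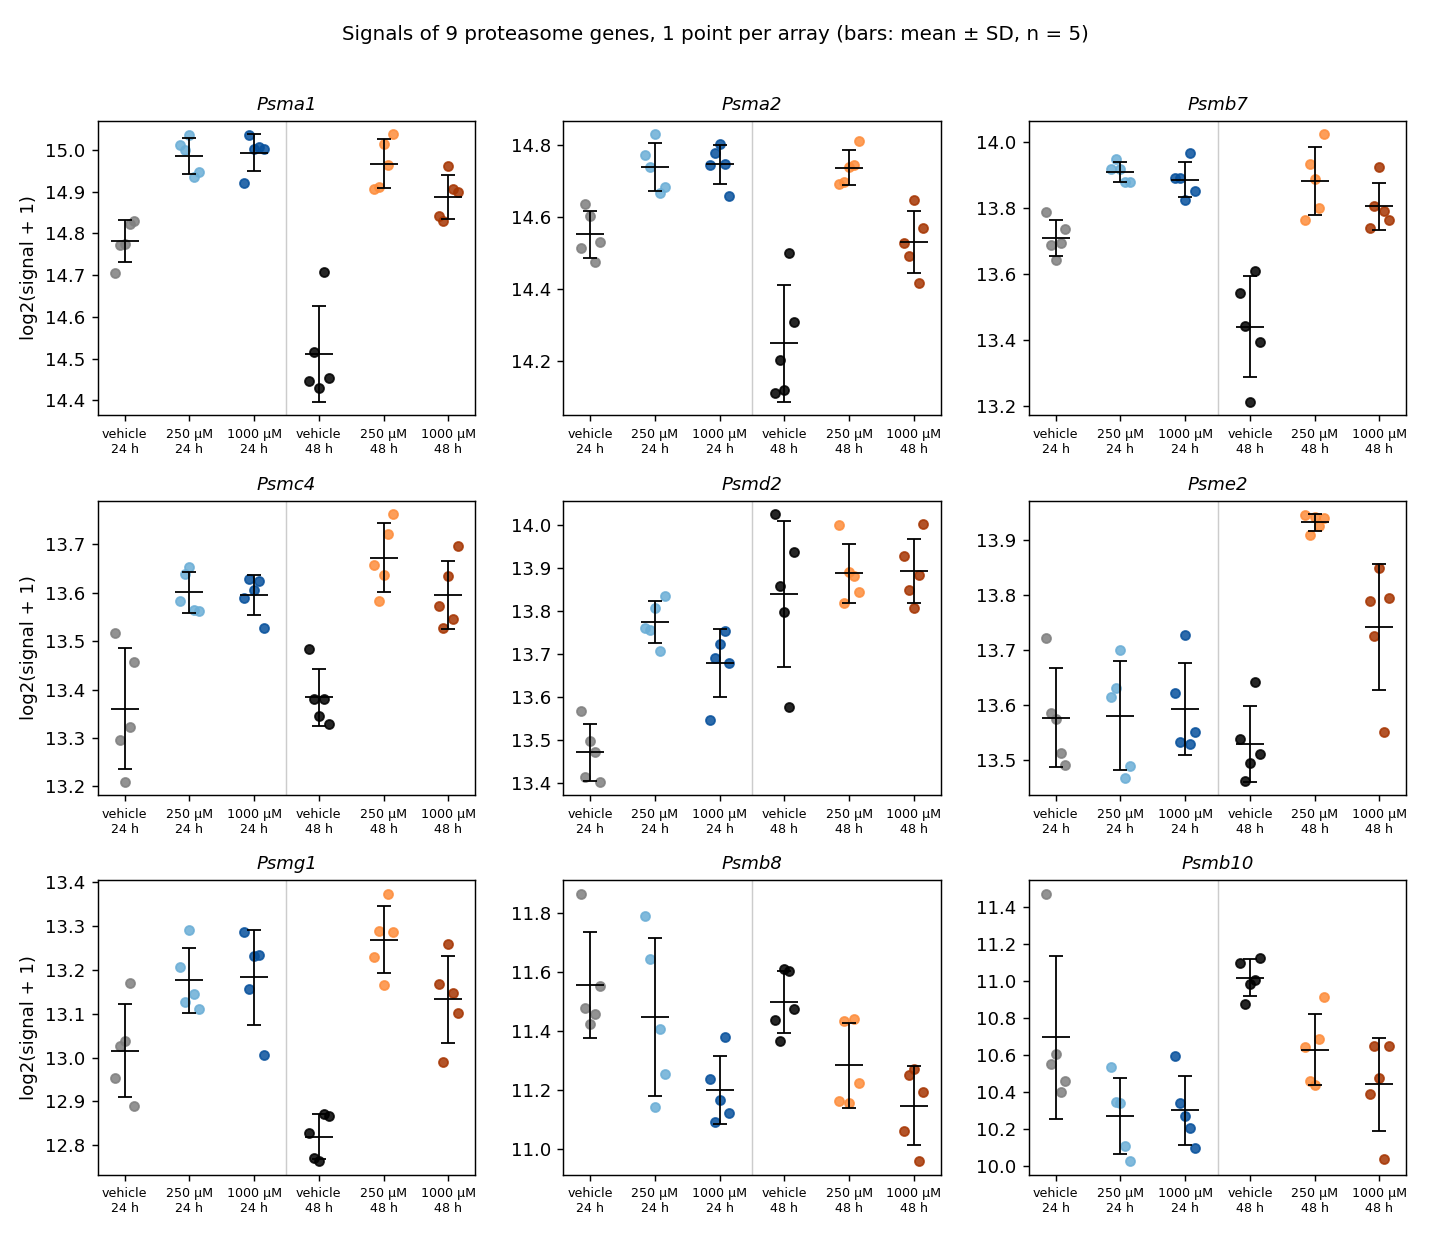
Log2 signal of 9 proteasome genes on every array (1 point each) in the 6 groups, with the mean and SD of 5 arrays. Psma1 and Psmb7 are higher with exposure at both times with no overlap, Psme2 is higher only at 48 h, Psmb10 is lower with exposure, and vehicle at 48 h holds replicate 4 away from the other 4 arrays for Psma1, Psma2 and Psmd2.

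The ATPases form the ring that unfolds substrates and opens the gate of the core. Of 6, 3 rose at 250 µM and 2 at 1000 µM at 24 h, and 5 at 250 µM and 2 at 1000 µM at 48 h, and all 6 changes were positive in each comparison. Psmc4 had 13.52, 13.30, 13.21, 13.32 and 13.46 in vehicle at 24 h, 13.58, 13.64, 13.65, 13.57 and 13.56 at 250 µM and 13.59, 13.63, 13.61, 13.62 and 13.53 at 1000 µM. At 48 h it had 13.48, 13.38, 13.35, 13.38 and 13.33 in vehicle, 13.66, 13.58, 13.64, 13.72 and 13.76 at 250 µM and 13.57, 13.53, 13.63, 13.55 and 13.70 at 1000 µM. No exposed array reached down to a vehicle array at either time. Psmc4 rose by 0.24 ± 0.05 and 0.23 ± 0.05 at 24 h and by 0.29 ± 0.05 and 0.21 ± 0.05 at 48 h, and in vehicle its 2 times differed by 0.02 ± 0.05. Psmc1 rose by 0.20 ± 0.06 at each dose at 24 h and by 0.24 ± 0.06 at 250 µM at 48 h. Psmc2, Psmc3 and Psmc5 rose at 250 µM and 48 h by 0.15 ± 0.04, 0.28 ± 0.05 and 0.24 ± 0.06, and Psmc5 also at 1000 µM by 0.16 ± 0.06. Psmc6 had changes of 0.22 to 0.37 with standard errors of 0.16 and passed in none.

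The 11 non-ATPase subunits of the regulatory particle hold the scaffold and the receptors and removers of ubiquitin. At 24 h, 5 rose at each dose (8.31% and 8.28% of all genes rose). At 48 h 5 rose at 250 µM (15.2%) and 1 at 1000 µM (11.5%), with none falling. The last count was near the share over all genes. Psmd2, the large scaffold beside the ATPase ring, had 13.57, 13.41, 13.50, 13.47 and 13.40 in vehicle at 24 h, 13.76, 13.76, 13.81, 13.71 and 13.83 at 250 µM and 13.55, 13.69, 13.72, 13.75 and 13.68 at 1000 µM. The 250 µM arrays lay above all vehicle arrays and 1 array at 1000 µM lay within them. It rose by 0.30 ± 0.06 (1.23-fold, adjusted p = 0.000234, limma) and 0.21 ± 0.06. At 48 h it had 14.02, 13.86, 13.80, 13.58 and 13.94 in vehicle, 14.00, 13.82, 13.89, 13.88 and 13.84 at 250 µM and 13.93, 13.85, 13.81, 13.88 and 14.00 at 1000 µM. These groups overlapped and its changes of 0.05 ± 0.06 and 0.05 ± 0.06 did not pass, with vehicle replicate 4 the lowest of the 15 arrays.

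Psmd1, the other large scaffold, rose by 0.28 ± 0.08 and 0.25 ± 0.08 at 24 h and had changes of 0.09 ± 0.08 and 0.15 ± 0.08 at 48 h. Psmd12 and Psmd11, subunits of the lid, rose at 24 h by 0.24 ± 0.06 and 0.18 ± 0.06 at 250 µM and by 0.22 ± 0.06 and 0.19 ± 0.06 at 1000 µM. Without 1 array the calls of Psmd1 at 1000 µM and of Psmd11 at either dose were lost in 4, 7 and 5 of 30 fits. Psmd14, the enzyme that removes the ubiquitin chain, rose by 0.19 ± 0.05 and 0.21 ± 0.05 at 24 h and by 0.28 ± 0.05 at 250 µM and 48 h. At that dose and time Psmd6, Psmd13 and Psmd8 also rose, by 0.32 ± 0.06, 0.23 ± 0.07 and 0.22 ± 0.05, as did the ubiquitin receptor Psmd4, by 0.17 ± 0.06. By the probe sets used, Psmd6 alone of the 11 rose at 1000 µM and 48 h, by 0.22 ± 0.06, while Psmd14 had 0.14 ± 0.05 (adjusted p = 0.0535) there and its 2 other probe sets rose, by 0.45 ± 0.10 and 0.32 ± 0.09. Psmd3 and Psmd7 passed at neither dose and time.

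The activators Psme1 and Psme2 together form the interferon-inducible PA28 cap, Psme4 is the single-chain activator PA200, and Psmf1 is an inhibitor of the core. At 24 h none of these 4 passed. Psme2 had 13.72, 13.59, 13.57, 13.51 and 13.49 in vehicle at 24 h, 13.61, 13.63, 13.70, 13.47 and 13.49 at 250 µM and 13.62, 13.53, 13.73, 13.53 and 13.55 at 1000 µM, so the 3 groups overlapped. At 48 h it had 13.54, 13.46, 13.49, 13.64 and 13.51 in vehicle, 13.94, 13.91, 13.94, 13.92 and 13.94 at 250 µM and 13.79, 13.72, 13.85, 13.55 and 13.79 at 1000 µM. All 250 µM arrays were above every other array of that time, and 1 array at 1000 µM lay within the vehicle range. Psme2 rose by 0.40 ± 0.06 (1.32-fold, adjusted p = 5.7e-07, limma) and 0.21 ± 0.06 at 48 h. Psme1 rose by 0.16 ± 0.04 at 250 µM and 48 h and had 0.03 ± 0.04 at 1000 µM. With quantile normalization its change at 250 µM and 48 h was 0.02 ± 0.04 and did not pass. In that setting it fell at 24 h, with changes of -0.15 ± 0.04 at 250 µM and -0.14 ± 0.04 at 1000 µM. Psme4 had -0.22 ± 0.10 and -0.07 ± 0.10 at 48 h, and Psmf1 0.15 ± 0.08 and -0.04 ± 0.08, and none passed.

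Of the 7 assembly chaperones, Psmg1, which pairs with Psmg2 to build the alpha ring, was the only one to rise in 3 comparisons. It had 12.83, 12.77, 12.76, 12.87 and 12.87 in vehicle at 48 h, 13.23, 13.29, 13.17, 13.37 and 13.29 at 250 µM and 13.17, 12.99, 13.26, 13.15 and 13.10 at 1000 µM. Every exposed array was above every vehicle array, and replicate 4 of vehicle did not stand apart. The rises were 0.45 ± 0.06 (1.37-fold, adjusted p = 1.7e-07, limma) and 0.31 ± 0.06. At 24 h its changes were 0.16 ± 0.06 (adjusted p = 0.0505) and 0.17 ± 0.06 (adjusted p = 0.0394, lost in 8 of 30 fits without 1 array). Psmg2, its partner, had changes of 0.04 ± 0.06 and -0.03 ± 0.06 at 48 h and passed nowhere against vehicle. Psmg4 and Psmd9 rose at 250 µM and 48 h, by 0.20 ± 0.06 and 0.22 ± 0.08. Psmd5, a chaperone of the ATPase base, fell by 0.17 ± 0.06 at 250 µM and 24 h, a call lost in 5 of 30 fits without 1 array. Psmg3 and Psmd10 passed in no comparison against vehicle, and neither did Psmc3ip and Psme3ip1.

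The 2 doses were compared directly at each time. No proteasome gene differed between 1000 and 250 µM at 24 h, where 0.0190% of all tested genes were called in either direction, or at 48 h, where 0.0665% were called. At an unadjusted limma p under 0.05 the counts were 3 and 16 of 46, with no such count made over all tested genes. At 48 h 39 of the 46 differences were below 0, with a median of -0.10, against 0.02 over all genes. The largest was Psma2, lower at 1000 µM by 0.21 ± 0.06 (adjusted p = 0.165, limma), followed by Psme2 at -0.19 ± 0.06, Psmb10 at -0.19 ± 0.15 and Psmf1 at -0.19 ± 0.08. For 4 genes, Psma2, Psmc2, Psme2 and Psmf1, all arrays at 1000 µM lay below all arrays at 250 µM. The share of all tested genes that separated in this way was not computed, so the 4 have no background to be read against. With arrays weighted by their quality 6 genes were called lower at 1000 µM at 48 h (1.35% of all genes) and 0 higher (2.54%).

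Time in vehicle alone also separated the proteasome genes. From 24 to 48 h, 18 of 46 fell (11.7% of all genes fell) and 4 rose (16.4% rose), with a median of -0.13 against 0.02 over all genes. Psmd9, Psmg4, Psma2, Psmd6, Psma1 and Psmb7 fell by 0.32 ± 0.08, 0.30 ± 0.06, 0.30 ± 0.06, 0.30 ± 0.06, 0.27 ± 0.05 and 0.27 ± 0.06. Psme4, Psmd2, Psmd1 and Psmd3 rose by 0.39 ± 0.10, 0.37 ± 0.06, 0.26 ± 0.08 and 0.24 ± 0.09. The call of Psmd1 was lost without vehicle replicate 3 at 24 h or replicate 5 at 48 h, and that of Psmd3 in 7 of 30 fits. With array medians centred 4 rose (16.1% of all genes) and 1 fell (4.45%), so the share that fell was no longer above that over all genes.

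Some of these changes went with the beta-actin ratio of the arrays. Psme4 had 12.82, 13.01, 12.99, 12.86 and 12.72 in vehicle at 24 h and 13.49, 13.42, 13.30, 12.83 and 13.33 at 48 h, and Psmd1 had 12.36, 12.25, 12.11, 12.15 and 12.33 and then 12.60, 12.58, 12.58, 12.09 and 12.66. In both genes replicate 4 at 48 h, whose actin ratio was like that of the other groups, lay at or near the 24 h range while the other 4 arrays lay above it. Of the falls named above, replicate 4 was the array nearest the 24 h mean for all but Psmd9. For Psmd9 it was -0.27 from that mean, with the other arrays at -0.23 to -0.46. The cause of these patterns was not tested. With replicate 4 as the sole array of vehicle at 48 h, the median change of the 46 genes over time was -0.04, against 0.003 over all genes. Psme4, Psmd1 and Psmd3 then had changes of -0.05, -0.15 and -0.14. With replicate 1, 2, 3 or 5 as the sole array the medians were -0.08, -0.16, -0.13 and -0.15, against 0.03, 0.02, 0.06 and 0.01 over all genes. Adding the actin ratio to the model left 4 genes called, 1 up (3.72% of all genes) and 3 down (3.39%).

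**Figure D4:**
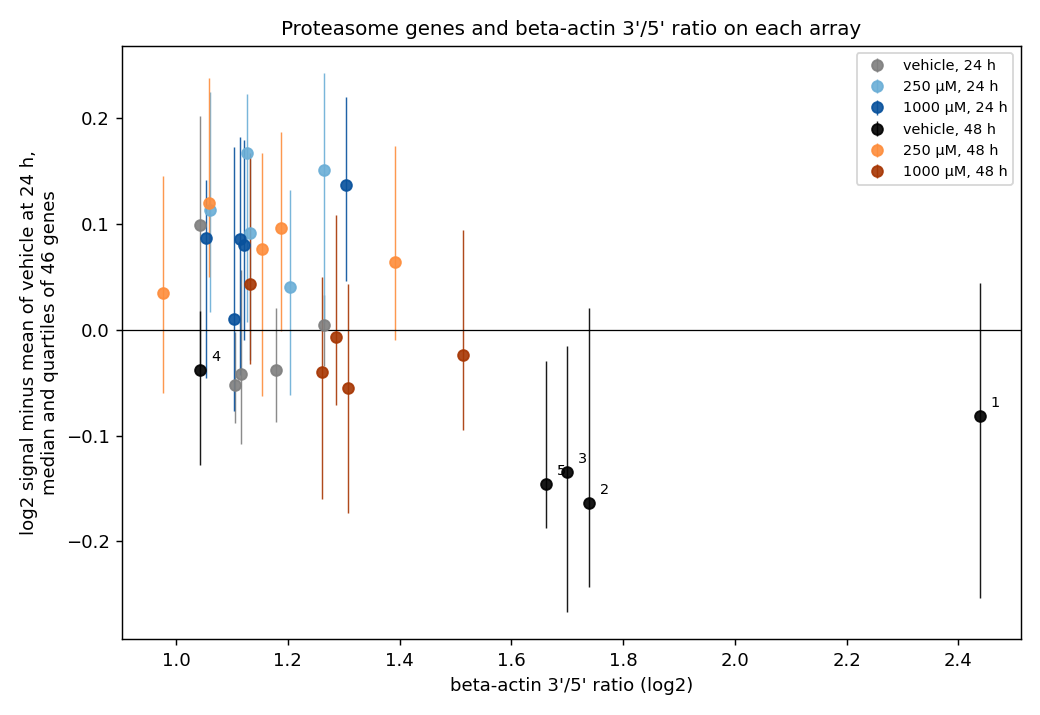
Median and quartiles over the 46 genes of the log2 signal minus the mean of vehicle at 24 h, plotted for each of 30 arrays against its beta-actin 3'/5' ratio (log2); numbers give the replicates of vehicle at 48 h. Replicates 1, 2, 3 and 5 have ratios of 1.66 to 2.44 and medians of -0.08 to -0.16, and replicate 4 has 1.04 and -0.04.

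The comparisons with vehicle at 48 h rest on the same 5 arrays. With replicate 4 as the sole vehicle array, 9 genes rose and 0 fell at 250 µM, and 2 rose and 0 fell at 1000 µM. With replicate 1, 2, 3 or 5 in its place, the medians of these genes were 0.16, 0.21, 0.19 and 0.21 at 250 µM. At 1000 µM they were 0.05, 0.10, 0.11 and 0.09. Against replicate 4 the changes at 250 µM were 0.26 for Psma1, 0.24 for Psma2, 0.27 for Psmb7, 0.29 for Psmc4, 0.29 for Psme2 and 0.40 for Psmg1, and these 6 passed. The rises of Psma4, Psmb5, Psmd14, Psmd4 and Psme1 at 250 µM did not pass against that array, with changes of 0.21 (adjusted p = 0.0503), 0.16 (adjusted p = 0.546), 0.22 (adjusted p = 0.144), 0.18 (adjusted p = 0.319) and 0.18 (adjusted p = 0.0893). Neither did the fall of Psmb10 (-0.38, adjusted p = 0.449) nor the rise of Psmg4, whose change was -0.034. At 1000 µM the 6 changes were 0.18, 0.03, 0.20, 0.22, 0.10 and 0.26, and none of the 6 passed, nor did Psma4 at 0.086 or Psmb5 at 0.011. The falls of Psmb10 and Psmb8 at 1000 µM were 0.56 and 0.46 in size against that array (changes of -0.56 and -0.46, adjusted p = 0.22 and 0.114), close to the values with all 5. Psmd1, in contrast, was higher by 0.50 and 0.56 at the 2 doses against replicate 4, and both passed. When the actin ratio entered the model 21 genes rose (11% of all genes) and 1 fell (15.5%) at 250 µM. At 1000 µM 10 rose (9.42%) and 2 fell (12.6%).

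With exposure, time changed fewer of these genes at 250 µM. There 2 rose (6.86% of all genes rose), Psme2 by 0.35 ± 0.06 and Psme1 by 0.28 ± 0.04, and 1 fell (6.52% fell), Psmd12 by 0.32 ± 0.06. At 1000 µM 3 rose (9.91% of all genes), Psme4 by 0.36 ± 0.10, Psmd2 by 0.22 ± 0.06 and Psme1 by 0.13 ± 0.04, and 11 fell (8.11%). Those with the largest falls at 1000 µM were Psmd12, Psmd14, Psma5, Psmg4, Psma2 and Psmg2, by 0.30 ± 0.06, 0.28 ± 0.05, 0.24 ± 0.05, 0.23 ± 0.06, 0.22 ± 0.06 and 0.21 ± 0.06. With array medians centred 0 genes rose (4.65% of all genes) and 1 fell (3.64%) at 1000 µM.

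Whether the effect of a dose differed between the times was tested as an interaction. At 250 µM the change against vehicle was larger at 48 h for 6 genes (3.84% of all genes were called upward) and smaller for 0 (4.52% downward). They were Psme2 (0.40 ± 0.08, adjusted p = 0.00179, limma), Psma2 (0.30 ± 0.08), Psmg1 (0.29 ± 0.08), Psme1 (0.26 ± 0.06), Psma1 (0.25 ± 0.07) and Psma4 (0.22 ± 0.07). At 1000 µM no gene passed, where 0.969% of all genes were called in either direction, and 4 of 46 had an unadjusted p under 0.05. The count at 250 µM was 0 with array medians centred (0.608% of all genes up, 0.817% down). It was 2 up and 0 down when the actin ratio entered the model (1.52% and 0.836%). With replicate 4 as the sole vehicle array at 48 h the median difference of the 46 genes was 0.04, against 0.09 with all 5. Without that replicate 12 were up (6.67%) and 4 down (10.3%). Without replicate 1 of vehicle at 24 h 7 were up (5.42%) and 3 down (6.47%). The calls of Psma4 and Psmg1 were lost in 13 and 4 of 30 fits without 1 array.

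Genes that work with the proteasome were followed as 4 lists, whose counts are to be read against the shares over all tested genes: 15.2% rose and 26.0% fell at 250 µM and 11.5% rose and 18.3% fell at 1000 µM at 48 h, and 8.31% and 8.28% rose and 11% and 11.2% fell at 24 h. Of 17 partners, maturation factors and transcription factors, 3 rose and 2 fell at 250 µM and 4 rose and 1 fell at 1000 µM at 24 h. At 48 h 4 rose (23.5%) and 5 fell (29.4%) at 250 µM, and 2 rose (11.8%) and 5 fell (29.4%) at 1000 µM, so the falls at 250 µM and the rises at 1000 µM were near the share over all genes. Ngly1, which removes the sugars from Nfe2l1 and so permits its activation, rose in all 4 comparisons, by 0.27 ± 0.05, 0.35 ± 0.05, 0.31 ± 0.05 and 0.33 ± 0.05 (250 and 1000 µM at 24 h, then at 48 h). Nfe2l1 itself rose at 24 h by 0.28 ± 0.09 and 0.27 ± 0.09 and had -0.11 ± 0.09 and 0.18 ± 0.09 at 48 h. Nfe2l2, the oxidative stress factor, fell in all 4, by 0.27 to 0.41. Ddi2, the protease that cleaves Nfe2l1, fell by 0.40 ± 0.08 at 250 µM and 24 h and by 0.29 ± 0.08 and 0.26 ± 0.08 at 48 h.

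In the same list Usp14, a deubiquitinase bound to the regulatory particle, rose by 0.23 ± 0.07 and 0.27 ± 0.07 at 24 h, and the maturation factor Pomp rose by 0.17 ± 0.05 at 250 µM and 48 h. Sem1, a small subunit of the lid, rose by 0.34 ± 0.06 and 0.24 ± 0.06 at 48 h. Ecpas, Mafg and Mafk fell at both doses at 48 h. Of 18 ubiquitin genes, E1 and other conjugating enzymes and shuttle factors, 2 rose at 250 µM and 1 rose and 1 fell at 1000 µM at 24 h, and 6 rose (33.3%) and 7 fell (38.9%), and 4 rose (22.2%) and 6 fell (33.3%), at 48 h. Ufd1, a cofactor of the segregase Vcp, rose in all 4 comparisons by 0.17 to 0.30, and Ubqln1 rose at 48 h by 0.30 ± 0.05 and 0.18 ± 0.05 while Ubqln2 and Ubqln4, of the same shuttle family, fell. Faf2, another Vcp cofactor, rose by 0.41 ± 0.10 and 0.48 ± 0.10 at 48 h.

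Of 18 antigen processing and interferon genes, 2 rose and 2 fell at 250 µM and 0 rose and 4 fell at 1000 µM at 24 h, and 0 rose and 8 fell (44.4%), and 0 rose and 7 fell (38.9%), at 48 h. Falls outnumbered rises over all tested genes too at that time. Tap1, which carries proteasome products into the endoplasmic reticulum, fell by 0.64 ± 0.15 at 1000 µM and 24 h and by 0.95 ± 0.15 and 1.09 ± 0.15 at 48 h (adjusted p = 4.9e-07 at 1000 µM, limma). Tap2, its partner, had changes of -0.64 to -0.43 with standard errors of 0.25 and passed in none. Erap1, which trims the peptides, fell by 0.55 ± 0.08 at each dose at 48 h, and the interferon-induced genes Ifit2, Mx2 and Isg15 fell at both doses at that time. Isg15 and Irf7 rose at 250 µM and 24 h, by 0.53 ± 0.14 and 0.32 ± 0.09.

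Of 20 autophagy genes, the other main route of protein breakdown, 1 rose and 3 fell, and 2 rose and 3 fell, at 24 h, and 5 rose (25%) and 5 fell (25%), and 2 rose (10%) and 4 fell (20%), at 48 h, where the falls were near the share over all genes. Gabarapl1, a coat protein of the autophagosome, fell in all 4 comparisons, by 0.32 ± 0.05 at each dose at 24 h and by 0.54 ± 0.05 and 0.49 ± 0.05 at 48 h. Sqstm1, the receptor that brings ubiquitin-tagged cargo to it, fell in all 4 by 0.20 to 0.29, and Wipi1 by 0.42 to 0.53, while Wipi2 rose by 0.21 to 0.32.

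**Figure D5:**
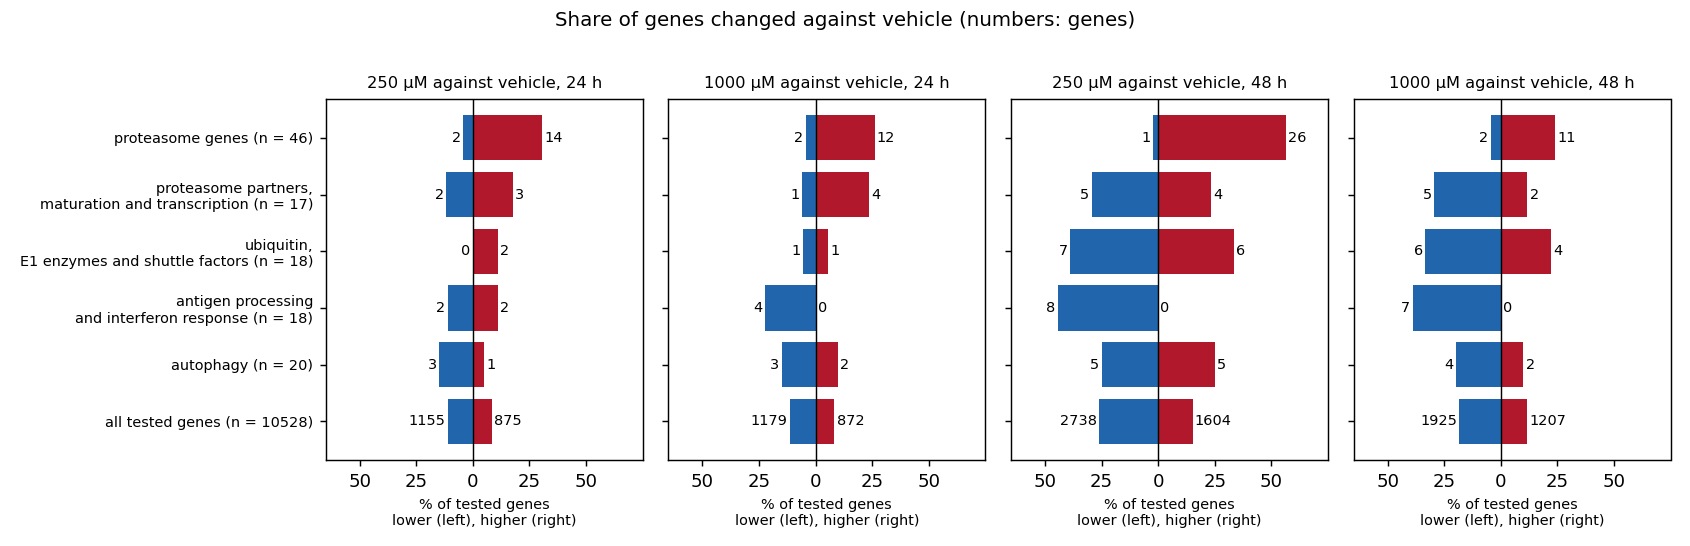
Bars give the percentage of tested genes that rose (right, red) or fell (left, blue) against vehicle in each list and over all 10528 tested genes, in 4 panels by dose and time; numbers are gene counts. The proteasome genes have the longest red bar of the 6 sets in each panel, 26 of 46 genes at 250 µM and 48 h, and the antigen processing list has 8 falls and 0 rises there.

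Some genes had further probe sets that gave other values. The 46 genes had 60 probe sets of 1 symbol. At 250 µM and 48 h, 2 other sets of Psmd14 gave 0.50 and 0.52 beside 0.28 for the set used (at 1000 µM 0.45 and 0.32 beside 0.14), and 2 other sets of Psmc6 gave 0.37 and 0.33 and passed, where the set used had 0.22 and did not. The other set of Psmd7 gave 0.24 and passed where the set used had -0.04. A dimmer set of Psme4 fell by 0.46, where the set used had -0.22 and did not pass. One other set of Psmb5 and the other set of Psme1 lay near the low-signal limit and gave -0.28 ± 0.47 and -0.66 ± 0.72. These calls come from the limma fit of every probe set.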

How the data were processed

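RNA of 30 wells was hybridised to Affymetrix rat arrays, 1 array a well. The authors deposited 1 linear signal intensity per probe set and array. Per the submitters' processing notes MAS5 was used, with no version given there. The 2% trimmed mean of every array was 1500.6 to 1500.7, so arrays share a scale. The deposited intensity plus 1 was taken as log2 and not scaled further. Of 31099 probe sets, 57 controls and the 40% of lowest mean (under 7.88) were left out, and genes kept their brightest probe set of 1 symbol, which gave 10528 genes.

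limma 3.58.1 in R 4.3.3 (lmFit, eBayes with trend) was fitted with 1 mean per group over all 30 arrays and 11 contrasts, and p-values were adjusted by Benjamini-Hochberg over the 10528 genes. The code was tested on simulated data. The number of arrays limits the precision. The members, lists and tests were chosen with earlier results of these data known. Named are up to 6 called genes of largest change each way per comparison, a fixed set of catalytic, immune, regulatory, activator and chaperone genes, and up to 4 genes of smallest p per pathway list at 1000 µM. Other pathway genes were named after their values were seen. Alternatives covered scaling, pseudocount, low-signal filter, probe set choice, variance model, array weights, each array left out and, added later, single vehicle arrays, the actin ratio and a block of title numbers.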

Additional observations from a re-analysis of the deposited data

Results flagged for a closer look

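In 12 of 198 groups of 5 arrays checked, 1 array stood apart, its gap to the nearest other array taking over 0.71 of the group's range. Chance marks about 1 group in 20. Vehicle replicate 4 at 48 h was the lowest for Psma7 (13.89, gap 0.843 of the range), Psmd1 (12.09, 0.853) and Psme4 (12.83, 0.714). Vehicle replicate 1 at 24 h was the highest for Psmb10 (11.47, 0.806), Psmb9 (12.22, 0.783) and Psmd12 (13.40, 0.845). Replicate 5 was the highest for Psma7 at 250 µM (14.53, 0.738) and at 1000 µM (14.47, 0.776) at 24 h. The lowest arrays were replicate 3 at 250 µM and 24 h for Psmd11 (13.36, 0.716), replicate 2 at 250 µM and 48 h for Psmd3 (11.35, 0.826) and replicate 2 at 1000 µM and 48 h for Psmf1 (12.57, 0.716). The beta-actin ratio of replicate 3 at 1000 µM and 24 h was the highest of its group (1.30, 0.727).

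The change at 250 µM was larger at 48 than at 24 h in the interaction test for Psma1 (by 0.25), Psma2 (0.30), Psma4 (0.22), Psme1 (0.26), Psme2 (0.40) and Psmg1 (0.29) on the log2 scale. None of these 6 passed with array medians centred, or with replicate 4 as the sole vehicle array at 48 h.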

How the results depend on the processing

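With array medians centred, 4 and 3 proteasome genes were called at 250 and 1000 µM at 24 h, 17 and 7 at 48 h, 5 over time in vehicle, 1 over time at 1000 µM and 0 for the difference of the 250 µM effect. Over time at 250 µM the count was 6 with quantile normalization, 6 with only the groups compared and 7 with array weights. Array weights also gave 6 for the doses at 48 h, 17 and 1 for the difference of the 250 and 1000 µM effects, and only the groups compared gave 12 over time in vehicle. The probe set of largest SD reversed Psmb5 (-0.28 at 250 and -0.24 at 1000 µM, 48 h) and Psme1 (-0.66 at 250 µM and 48 h, -0.73 and -0.35 over time at 250 and 1000 µM, -1.29 for the difference of the 250 µM effect).

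Settings with 1 vehicle array at 48 h, or with the actin ratio as a covariate, were chosen after seeing the data. The lone array is assumed to vary like the other groups. Replicate 4 alone gave 9 and 2 at 250 and 1000 µM, 0 over time in vehicle and 0 for the difference at 250 µM, and reversed Psmg4 (-0.034 at 250 µM), Psmd1 (-0.15), Psmd3 (-0.14) and Psme4 (-0.047 over time). Replicate 1 alone gave 15, 7, 14 over time and 3 for the difference at 1000 µM. Replicate 2 alone gave 6 at 1000 µM and 10 over time, replicate 3 alone gave 8, 13 and 1 for the difference at 1000 µM, and replicate 5 alone gave 14, 6, 11 and 3 for the difference at 250 µM. The covariate gave 4 over time in vehicle, 5 over time at 250 µM and 2 for the difference at 250 µM.

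Leaving out each array in turn gave 12 to 18 and 10 to 15 genes at 250 and 1000 µM at 24 h, 25 to 29 and 10 to 19 at 48 h, and 0 to 0 between doses. It gave 18 to 25, 3 to 6 and 11 to 16 over time in vehicle, at 250 and at 1000 µM. For the difference it gave 4 to 16 at 250 µM and 0 to 2 at 1000 µM. The highest of these, 16 and 2, came without vehicle replicate 4 at 48 h, and the 6 came without vehicle replicate 1 at 24 h. The cause of these shifts was not tested.

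Of 77 calls of named genes, 77 were kept with a pseudocount of 32, 74 with no filter on low values, 62 with quantile normalization, 59 with the covariate and 32 with centring. Running numbers in the sample titles form 5 sets of 6 arrays, 1 of each group, and nothing in the labels says what a set shares. Deviations from the group means of arrays in the same set correlated at -0.124 to 0.223. Their mean was 0.0456, against -0.0113 for arrays of different sets. In 0 of 15 group pairs were all 5 over 0.1, so the sets were not taken as pairs. A weak effect shared by a set could escape this rule. With the set as a replicate block, also chosen after seeing the data, 17 and 15 genes were called at 24 h and 28 and 14 at 48 h (250, then 1000 µM), 22, 3 and 15 over time in vehicle, at 250 and at 1000 µM, 0 between doses, and 6 and 0 for the differences at 250 and 1000 µM. All 77 calls of named genes were kept under the block, and 4 were added.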
